A study of Mus musculus with 32 samples.

Results

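The heat shock proteins and their J-domain partners were followed across left ventricular RNA of 32 mice. Members were taken by symbol: the genes of the Hspa, Hspb, Hspd, Hspe and Hsph series, the Hsp90 genes and the Dnaja, Dnajb and Dnajc series, without Hspa5 and Hspg2. That gave 69 of the 18193 genes named alone by a probe set of the array, and 62 of them lay high enough to be tested (11014 genes in all). Each gene was read from 1 probe set, the one with the highest mean over the 32 arrays. Hsp90ab1 was not analysed here.

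The mice were C57Bl6 animals with a labelled age of 10 weeks, and the tissue was the cardiac left ventricle. They formed 8 groups of 4 individual mice: wild-type females and males, and females and males labelled as estrogen receptor beta knockout, each after sham surgery or after transverse aortic constriction (TAC), surgery that narrows the aortic arch so that the ventricle pumps against a higher pressure. The labels put the TAC of the knockout mice at 9 weeks and give no duration for the wild-type TAC mice, so any contrast between the genotypes after TAC carries that unknown. A stratum below means 1 sex of 1 genotype, with 4 sham and 4 TAC mice, and the design asks how sex and the receptor bear on the hypertrophic response. The replicates were individual mice, per the labels.

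Heat shock proteins are chaperones that bind unfolded protein. Small heat shock proteins hold unfolding clients without using ATP, HSP70 proteins cycle on and off their clients with ATP, and the HSP110 proteins reset HSP70 by exchanging its nucleotide. J-domain proteins of the DNAJA, DNAJB and DNAJC classes deliver clients to HSP70 and start its ATP hydrolysis, HSP90 takes over late-folding clients such as kinases and steroid receptors, and the chaperonin Hspd1 with its lid Hspe1 folds protein inside mitochondria. In heart muscle several small heat shock proteins are abundant and sit at the sarcomere. Heat shock factor drives the inducible members through heat shock elements, inverted repeats of the letters GAA.

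Values are MAS5 signals, a linear brightness per probe set scaled by the depositors so that the 2% trimmed mean is 500 on every array. Signals of different genes are not set against each other. Differences were tested with limma on log2(signal + 32) across all tested genes, and "rose", "fell" and "passed" mean an adjusted p under 0.05. Fold changes are on that log2(signal + 32) scale, which understates the change of dim genes.

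Several facts of the whole series bear on these values. Xist signals were 4845.7 to 8072 in females and 59.2 to 172 in males, matching the labelled sexes. Esr2 lay below the level for testing, at 3.6 to 67.7 (median 13.0) in wild types and 25.8 to 197 (median 108) in mice labelled knockout. The targeted gene thus read higher in the mice labelled knockout, against their label. The sources used here do not say whether that probe set lies in the deleted part, and genotypes are used as labelled. Myh7, the fetal myosin heavy chain, ran from 1757 to 5147 in sham and from 21803 to 55963 in TAC mice, without overlap. Ventricular Myl2 was at or above 33176 on every array, while Myl7, a marker of atrial muscle, ran from 5.4 to 16868 and all 5 skeletal muscle markers were below the level for testing, with none listed at 0. The array's beta-actin control, which sets the 3′ against the 5′ end of the transcript and so follows RNA integrity and amplification, gave log2 differences of 0.45 to 1.10 in sham and 0.04 to 0.48 in TAC mice, so its ranges met only between 0.45 and 0.48. The Gapdh control ran from -0.37 to -0.24 in sham and from -0.32 to -0.18 in TAC mice. Macrophage markers rose with TAC in 7 of 7 genes and fibroblast markers in 3 of 6, while 2 of 6 ventricular myocyte markers fell. Summed macrophage signals ran from 7409 to 14952 in the sham groups and from 11541 to 28339 in the TAC groups. In whole ventricle, more or fewer cells of a type and more or less RNA per cell cannot be told apart. The part of the shifts in cell type markers in the results below was not tested. For the RNA controls, fits with a control as covariate are given. The beta-actin control went so closely with surgery that such a fit cannot separate the control from surgery. A call lost or kept in that fit therefore decides nothing about RNA quality.

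Across both sexes and genotypes TAC moved heat shock genes in both directions: 17 members rose and 9 fell, 41.9% of the 62 tested, beside 41.2% of all genes tested (23.5% of all genes rose and 17.8% fell). The share lies near that of all genes, so the count by itself is no result about these chaperones. Their median log2 change was 0.03 beside 0.02 for all genes. By family the directions were as follows. Among HSP70 proteins 4 of 10 rose and 2 fell, among the small heat shock proteins 3 of 6 rose and none fell, and both chaperonin genes fell. Of 3 HSP110 genes 1 rose, and of the 2 HSP90 genes 1 fell. J-domain genes were divided, with 8 of 36 higher and 4 of 36 lower. Sorted by compartment, a grouping made after the results were seen, 5 of the 8 mitochondrial members fell and 1 rose, and of the 9 members of the endoplasmic reticulum 2 rose and 2 fell. With the beta-actin control as a covariate 6 members passed in place of 26, beside 7.88% of all genes, and with the Gapdh control 17 did, beside 18.5%, so calls were lost over the whole array.

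**Figure D1:**
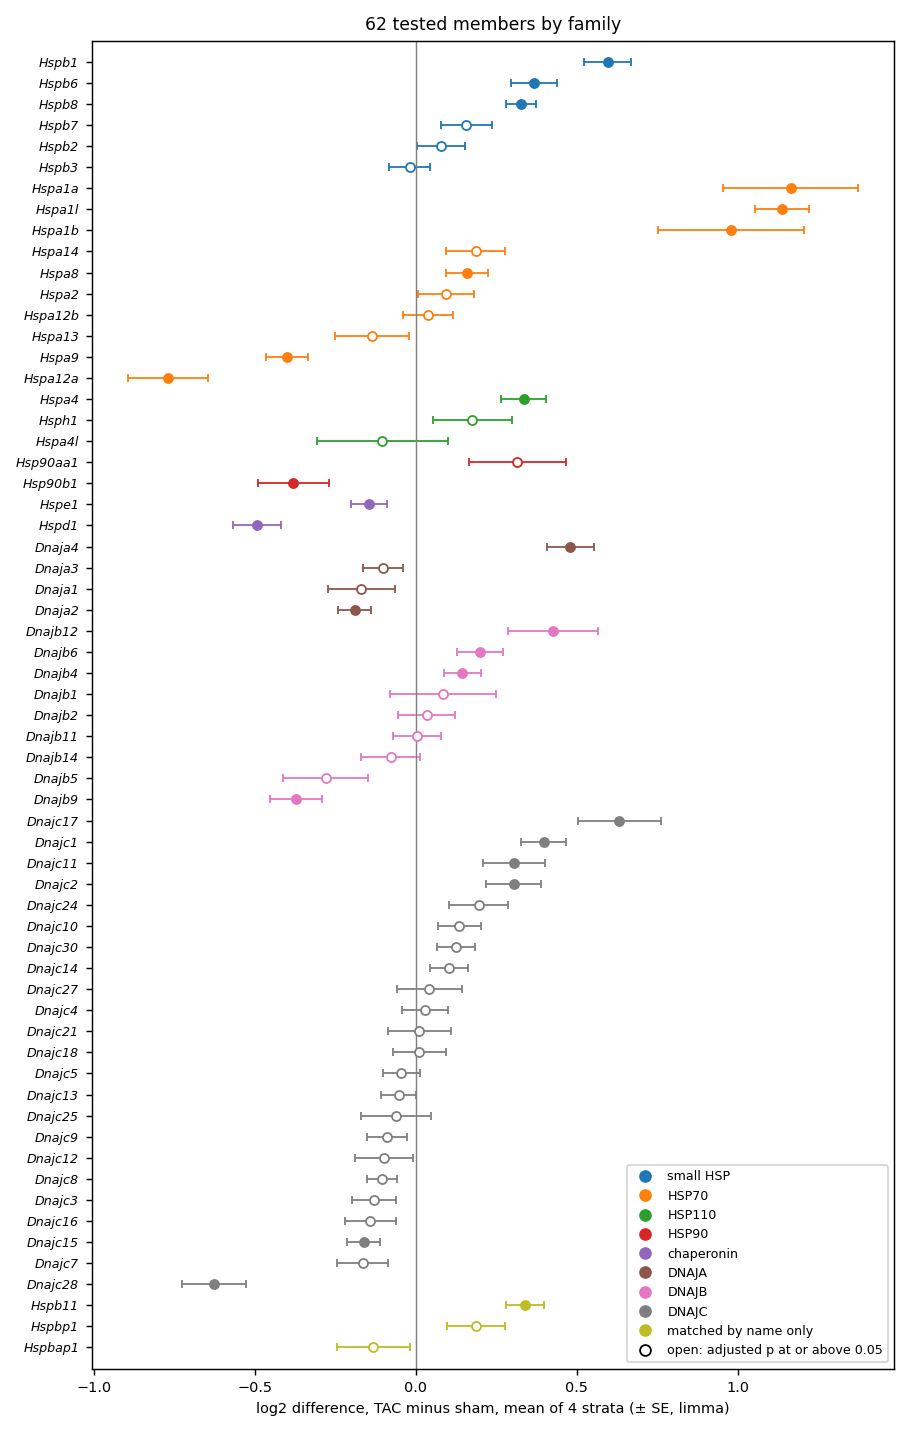
Each point is the log2 difference of a tested member between TAC and sham, averaged over the 4 strata, with its SE from limma. Filled points passed at an adjusted p under 0.05. Hspa1l, Hspa1a and Hspa1b stand near 1 on the right, while Hspa12a, Dnajc28 and Hspd1 stand lowest on the left.

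Promoter letters were read for the members with a RefSeq start window (GRCm38.p6, 250 bases before to 50 after the start), which matched for 57 of the 69. The core of a heat shock element was searched as GAANNTTC, which reads the same on both strands. It occurred in 13 of the 57 members (22.8%) and in 9.04% of the 27025 genes with a window. The 13 were Hspa1a, Hspa1b, Hsph1, Hspb1, Hspb3, Hspb6, Hspb8, Hspd1, Hspe1, Dnaja1, Dnaja4, Dnajb6 and Dnajc27. It stood in 7 of the 14 members that rose with TAC and have a window, in 2 of the 8 that fell, and in 4 of the 29 that did not pass. The extended form, the core followed by NNGAA, searched on both strands, was found in Hsph1, Hspd1, Hspe1 and Dnajb6 and in 0.662% of all genes. Neither form was in the windows of Hspa1l and Dnajb1, which says only that these letters are absent from those 300 bases. A match is a run of letters, and no binding was measured here.

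Printed here are 5 chosen stretches, all of which hold a match: the inducible HSP70 pair, 2 small heat shock genes that rose, and the chaperonin lid. Windows without a match, such as that of Hspa1l, are not printed. Each runs from base 140 to base 21 before the start, 5′ to 3′ on the gene's strand, and capitals mark GAANNTTC and its overlapping form TTCNNGAA.
Hspa1a (chr17:34972177-34972296, minus strand): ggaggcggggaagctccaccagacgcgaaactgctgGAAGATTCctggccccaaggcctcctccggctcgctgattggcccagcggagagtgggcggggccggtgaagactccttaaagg
Hspa1b (chr17:34959259-34959378, minus strand): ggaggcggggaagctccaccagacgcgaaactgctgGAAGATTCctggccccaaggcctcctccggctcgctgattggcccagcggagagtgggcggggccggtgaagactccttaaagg
Hspb1 (chr5:135887779-135887898, plus strand): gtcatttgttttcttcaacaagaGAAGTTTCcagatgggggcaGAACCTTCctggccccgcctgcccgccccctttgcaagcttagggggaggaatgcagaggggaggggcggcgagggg
Hspb6 (chr7:30553161-30553280, plus strand): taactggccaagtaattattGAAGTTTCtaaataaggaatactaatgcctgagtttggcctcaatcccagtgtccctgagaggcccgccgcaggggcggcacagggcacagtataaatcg
Hspe1 (chr1:55088008-55088127, plus strand): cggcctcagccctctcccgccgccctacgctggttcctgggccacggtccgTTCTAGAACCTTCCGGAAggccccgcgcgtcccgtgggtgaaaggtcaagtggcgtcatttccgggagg
The Hspa1a and Hspa1b windows differed at 3 of the 250 bases before the start (98.8% identity), and both hold their match at 104 bases before it. Hspb1 holds 2 matches and Hspb6 holds 1. In Hspe1 the capitals form an unbroken run of 18 bases, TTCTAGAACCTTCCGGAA, which starts 89 bases before the start. The same run falls inside the window of Hspd1 on the other strand (chr1:55087883-55088182, overlapping that of Hspe1 by 285 bases). Hspe1 and Hspd1 both fell with TAC, in contrast to Hspa1a, Hspa1b, Hspb1 and Hspb6.

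Of the 6 tested small heat shock proteins none fell, and the median log2 change was 0.24. Hspb1, which binds unfolding client proteins and actin, was higher in TAC than in sham mice throughout. Hspb1 signals in wild-type females were 16839, 13615, 16496 and 13014 after sham surgery and 26259, 19722, 17262 and 17786 after TAC. Wild-type males had Hspb1 signals of 15435, 15230.5, 14818 and 15388 after sham surgery and 19507, 20230.5, 19525 and 18828 after TAC. In both wild-type strata every TAC mouse lay above every sham mouse. Knockout females had Hspb1 signals of 17139.5, 16513, 13128 and 12260.1 after sham surgery and 18707, 24938, 25471 and 22544 after TAC. Hspb1 signals in knockout males were 10138, 9642, 14742 and 14988 after sham surgery and 27528, 20242, 25049.8 and 22721 after TAC. Knockout Hspb1 was likewise apart, and over the whole study all 16 TAC mice exceeded the highest of the 16 sham mice. Hspb1, whose printed start region holds 2 matches, rose by 0.60 ± 0.07 (log2 ± SE; 1.51-fold, limma adjusted p = 1.82e-07), and it passed on its own in knockout females (0.64) and knockout males (0.97). The wild-type values were 0.42 in females and 0.36 in males, neither passing alone with the spread shared by the 8 groups. A second Hspb1 probe set gave 0.83. With the beta-actin control as a covariate the Hspb1 value was 0.36 (limma adjusted p = 0.124).

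Hspb8 works with the co-chaperone Bag3 in clearing damaged muscle proteins by autophagy. Hspb8 signals in wild-type females were 11969, 13479.9, 12988 and 12148 after sham surgery and 16997, 14872, 15336 and 14156 after TAC. Wild-type males had Hspb8 signals of 12792, 12011, 14419.8 and 14441 after sham surgery and 14318, 15612, 17037 and 15206 after TAC. Wild-type females were fully apart, while among the males the lowest TAC mouse lay just under the highest sham mice. Knockout females had Hspb8 signals of 12001, 8944, 10608 and 10210.0 after sham surgery and 14488, 14871, 13540.3 and 14883 after TAC. Hspb8 signals in knockout males were 12419, 13191, 10658 and 11934 after sham surgery and 15116, 15232, 16494 and 14152 after TAC. Both knockout strata were apart without overlap, and 12 of all 16 TAC mice exceeded every sham mouse. Hspb8 rose by 0.33 ± 0.05 (1.25-fold, limma adjusted p = 2.4e-06). Its other probe sets did not point one way: they gave 0.54 and -0.34.

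Hspb6, a small heat shock protein of striated and smooth muscle and a target of protein kinase A, separated the surgeries in the knockouts. Hspb6 signals in wild-type females were 26240.4, 26569, 31162 and 25719 after sham surgery and 56928, 33198, 27981 and 28271 after TAC. Wild-type males had Hspb6 signals of 27889, 27415, 26421 and 33433 after sham surgery and 32726, 31188, 30988 and 30988 after TAC. Wild-type groups overlapped, and TAC female replicate 1 stood far above the rest. That array was also the highest of all 32 for Hspb7 and Hspa8. Knockout females had Hspb6 signals of 21208, 23915, 18973 and 22298 after sham surgery and 28784, 37089, 33374 and 31639.8 after TAC. Hspb6 signals in knockout males were 23848, 26576, 23344 and 24542 after sham surgery and 38435, 30946, 29881 and 29534 after TAC. Knockout TAC mice lay above all sham mice of their sex. Hspb6 rose by 0.37 ± 0.07 (1.29-fold, limma adjusted p = 0.000154), with 0.60 in knockout females and 0.38 in knockout males passing alone. Under the actin covariate Hspb6 was at 0.19 (limma adjusted p = 0.465).

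Hspb7, a small heat shock protein mainly of heart and skeletal muscle, did not pass over the mean of the strata. Hspb7 signals in wild-type females were 31407, 33439, 39434 and 29882 after sham surgery and 55727, 36065, 30644 and 30828 after TAC. Wild-type males had Hspb7 signals of 33706, 33678, 32552 and 38040.4 after sham surgery and 33869.7, 33372, 33889 and 33362 after TAC. The wild-type groups overlapped. Knockout females had Hspb7 signals of 34194, 34391, 30090.4 and 29486 after sham surgery and 26194, 34971, 37050.4 and 33029 after TAC. Hspb7 signals in knockout males were 25061, 17076, 29237 and 32295 after sham surgery and 39381, 35413, 33314 and 32764 after TAC. Knockout male TAC mice lay above their sham mice, one of which was low at 17076. The mean change was 0.16 ± 0.08 (limma adjusted p = 0.112), which did not pass, although the value in knockout males did (0.48). Its 2 other probe sets gave 0.37 and 0.64, both past the threshold when every probe set was fitted alone, and the main probe set passed after quantile normalization (0.29, limma adjusted p = 0.000251). The beta-actin covariate turned the sign, to -0.21 (limma adjusted p = 0.418). Hspb2, a muscle small heat shock protein whose gene neighbours Cryab, gave 0.08 overall and 0.51 in knockout males, where it passed. Hspb3, its binding partner, gave -0.02. Hspb9 was dim throughout, at 1.1 to 28.5, and was not tested.

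Cryab, the alpha-B crystallin and the best known small heat shock relative in heart, was outside the symbol rule. Its change was 0.11 ± 0.07, adjusted p = 0.163, and it did not pass.

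Members of the Hspa1 gene cluster rose most. Hspa1l, an HSP70 known mainly from developing sperm, lies beside Hspa1a and Hspa1b in the genome. It had the smallest p of all members. Hspa1l signals in wild-type females were 245, 174, 118 and 147 after sham surgery and 368, 337, 369.9 and 419.6 after TAC. Wild-type males had Hspa1l signals of 174, 199, 156 and 176 after sham surgery and 319, 382, 387 and 364 after TAC. TAC and sham did not meet in either wild-type stratum. Knockout females had Hspa1l signals of 158, 197, 130.4 and 195 after sham surgery and 323, 474, 501 and 440.3 after TAC. Hspa1l signals in knockout males were 179, 102, 159 and 156 after sham surgery and 460.2, 356, 496 and 446 after TAC. The knockouts were apart too, and all 16 TAC mice lay above all 16 sham mice, at 319 to 501 (median 385) against 102 to 245 (median 166). Hspa1l rose by 1.14 ± 0.08 (2.20-fold, limma adjusted p = 1.61e-11). It was the 1 member that passed in each of the 4 strata, at 1.03 and 0.92 in wild-type females and males and at 1.20 and 1.39 in the knockouts. It still passed with the beta-actin covariate, at 0.87 (limma adjusted p = 0.0012).

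Hspa1a encodes the classical heat-inducible HSP70. Hspa1a signals in wild-type females were 882, 203, 303 and 244 after sham surgery and 536, 374, 313 and 593 after TAC. Wild-type males had Hspa1a signals of 165, 188, 134 and 534 after sham surgery and 988, 875, 1134 and 485 after TAC. One sham mouse in each wild-type sex was far above its group. Knockout females had Hspa1a signals of 169, 337, 291 and 285 after sham surgery and 369.6, 457, 828 and 658 after TAC. Hspa1a signals in knockout males were 122, 109, 186 and 557 after sham surgery and 576, 418, 1066 and 687 after TAC. Only knockout females were free of overlap, and 3 of the 16 TAC mice exceeded every sham mouse. Hspa1a rose by 1.17 ± 0.21 (2.24-fold, limma adjusted p = 5.4e-05), a similar mean to Hspa1l with a wider error. It passed in wild-type males (1.77) and knockout males (1.57), while the values in wild-type females (0.33) and knockout females (0.98) did not pass. Hspa1a with the actin covariate was at 0.94 (limma adjusted p = 0.187).

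Hspa1b is a near-identical copy of Hspa1a, and the probe sets of the pair may read both transcripts, so the 2 genes are not separate evidence. Hspa1b signals in wild-type females were 1818, 340.4, 686 and 394 after sham surgery and 1028, 628, 535 and 705 after TAC. Wild-type males had Hspa1b signals of 345, 391, 325 and 1052 after sham surgery and 1782, 1479.9, 2391 and 767 after TAC. The same sham mice were high as for Hspa1a. Knockout females had Hspa1b signals of 491, 808, 586 and 469 after sham surgery and 606, 936, 1521 and 1146 after TAC. Hspa1b signals in knockout males were 305, 392, 304 and 1244 after sham surgery and 999, 825, 2689 and 1327 after TAC. TAC and sham overlapped in every stratum. Hspa1b rose by 0.98 ± 0.23 (1.97-fold, limma adjusted p = 0.000992), and its other 2 probe sets gave 1.08 and 1.04. The call was lost with the Gapdh control (0.69, limma adjusted p = 0.132) and with the beta-actin control (1.17, limma adjusted p = 0.127) as covariate.

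**Figure D2:**
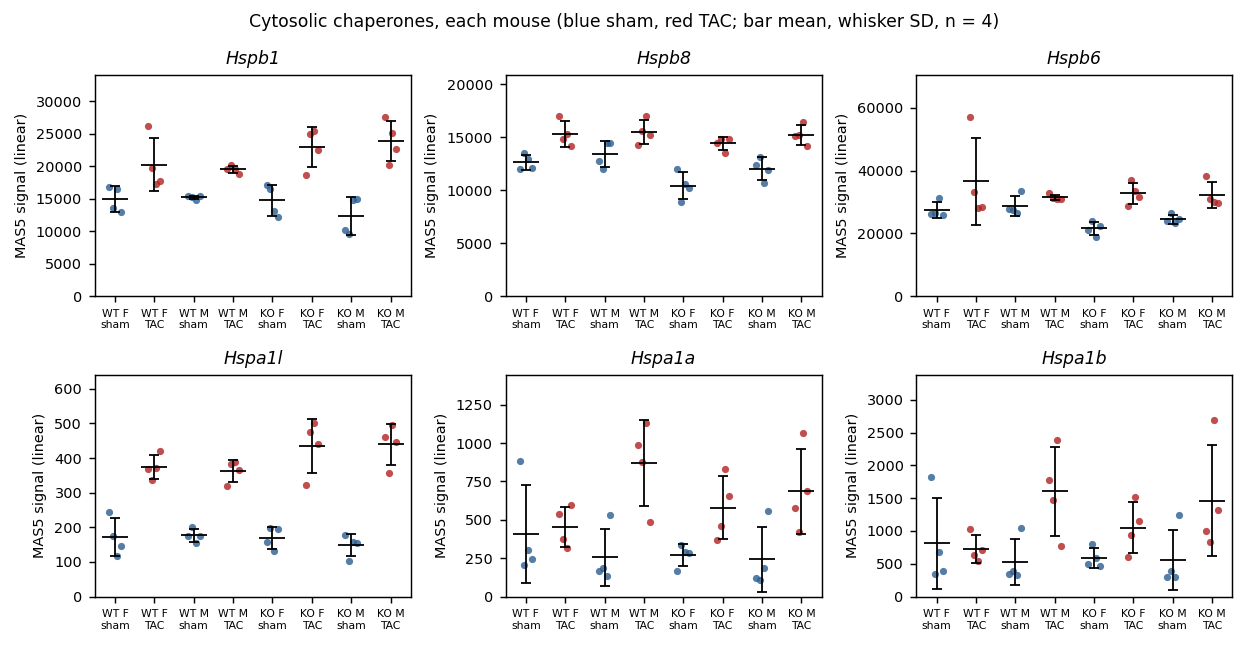
MAS5 signal (linear axis from 0) of each mouse in the 8 groups for Hspb1, Hspb8, Hspb6, Hspa1l, Hspa1a and Hspa1b; bars are group means and whiskers SD (n = 4). Hspb1 and Hspa1l separate TAC from sham completely, while Hspa1a and Hspa1b have single high sham mice in 3 of the groups.

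Hspa8 is the constitutive cytosolic HSP70, also called HSC70. Hspa8 signals in wild-type females were 26318, 21334, 28418 and 24055 after sham surgery and 35559, 25201, 25232 and 26643 after TAC. Wild-type males had Hspa8 signals of 21379, 23761, 23938 and 24764 after sham surgery and 25635, 22854, 25369.5 and 21936 after TAC. Wild-type groups overlapped. Knockout females had Hspa8 signals of 31523, 27943, 24549.7 and 25597 after sham surgery and 23518, 28517, 35257 and 30887 after TAC. Hspa8 signals in knockout males were 18819, 21635, 25700.4 and 29564 after sham surgery and 30632, 28669.9, 30235 and 30582 after TAC. Knockout males came closest to separation, with 1 high sham mouse among the TAC values. Hspa8 rose by 0.16 ± 0.06 (limma adjusted p = 0.0484), close to the threshold, and leaving out 1 array ended the call for 19 of the 32 arrays. Hspa2, Hspa13 and Hspa14, known from testis, microsomes and the ribosome, gave 0.09, -0.14 and 0.19, none passing on the probe set used.

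Hspa12a, a divergent HSP70 relative first described in atherosclerotic lesions, showed the largest fall. Hspa12a signals in wild-type females were 689, 746, 652 and 724 after sham surgery and 321, 557, 448 and 578 after TAC. Wild-type males had Hspa12a signals of 650.3, 703, 697 and 665 after sham surgery and 286, 394, 434 and 514 after TAC. Both wild-type strata were apart. Knockout females had Hspa12a signals of 364, 288, 742 and 644 after sham surgery and 298, 218, 219 and 422 after TAC. Hspa12a signals in knockout males were 607, 507, 702 and 400.0 after sham surgery and 187, 364, 284 and 159 after TAC. Knockout males were apart and knockout females overlapped, with 2 of their sham mice as low as TAC mice. Hspa12a fell, at -0.77 ± 0.12 (1.71-fold lower, limma adjusted p = 1.26e-05), and the 2 of its 3 other probe sets above that level gave -0.69 and -0.26. Under the beta-actin covariate Hspa12a was at -0.71 (limma adjusted p = 0.0853). Its relative Hspa12b gave 0.04 and did not pass.

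Among the HSP110 genes, Hspa4, a nucleotide exchange factor of HSP70, ran from 3272 to 5793 (median 4265) in sham and from 4142 to 6525 (median 5480.1) in TAC mice. It rose by 0.33 ± 0.07 (1.26-fold, limma adjusted p = 0.000277). The 2 of its 3 other probe sets above the level for testing gave 0.10 and -0.14, so the rise rests on the probe set used. Hsph1, the heat-inducible HSP110, varied widely between mice. Hsph1 signals in wild-type females were 1858, 1459.9, 1694 and 1475 after sham surgery and 2076, 2227, 1504 and 2287 after TAC. Wild-type males had Hsph1 signals of 2154, 1594, 1665 and 1760.0 after sham surgery and 1461, 1834, 2546 and 1879 after TAC. No wild-type stratum was apart. Knockout females had Hsph1 signals of 1496, 1136, 1879 and 2052 after sham surgery and 1502, 1543, 1810.1 and 3257 after TAC. Hsph1 signals in knockout males were 1435, 1274, 2191 and 1384 after sham surgery and 1335, 2376, 2108 and 949.8 after TAC. Knockout groups overlapped as well, and the change of 0.17 ± 0.12 did not pass (limma adjusted p = 0.261).

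Hsp90aa1 encodes the inducible cytosolic HSP90. Hsp90aa1 signals in wild-type females were 11622, 7425, 8931 and 8939 after sham surgery and 12395, 11241, 10572 and 11075 after TAC. Wild-type males had Hsp90aa1 signals of 8288, 6937, 7517 and 8361 after sham surgery and 4915, 12730.5, 11839 and 10971 after TAC. Among wild-type TAC males replicate 1 was the low exception. Knockout females had Hsp90aa1 signals of 3897, 4383, 8595 and 9159 after sham surgery and 6014, 6404, 8518 and 13362 after TAC. Hsp90aa1 signals in knockout males were 7136, 9056, 8095 and 3354 after sham surgery and 7530.1, 5349.7, 10896 and 7670.0 after TAC. Low sham values in knockout females and in male replicate 4 widened the spread. The change was 0.31 ± 0.15 (limma adjusted p = 0.094), which did not pass. Hsp90b1, the endoplasmic reticulum HSP90, ran from 6828 to 16622 (median 10534) in sham and from 4005 to 12362 (median 8754) in TAC mice, and it fell, at -0.38 ± 0.11 (1.30-fold lower, limma adjusted p = 0.00661). A second probe set gave -0.55.

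Mitochondrial chaperones had mostly lower values after TAC. Hspd1 is the chaperonin HSP60 of the mitochondrial matrix. Hspd1 signals in wild-type females were 15404, 17129.7, 16386 and 15837 after sham surgery and 13329, 11951, 10903 and 12473 after TAC. Wild-type males had Hspd1 signals of 16489.8, 15677, 15324 and 16189.9 after sham surgery and 9956, 9778, 10818 and 11254 after TAC. Every wild-type TAC mouse lay below every sham mouse of its sex. Knockout females had Hspd1 signals of 12426, 10542, 14065 and 13976 after sham surgery and 10318, 7948, 8713 and 13310.5 after TAC. Hspd1 signals in knockout males were 14612, 15562, 14860.3 and 10929.5 after sham surgery and 8148, 13016, 9572 and 6948 after TAC. Knockout groups leaned the same way with overlap, and 8 of 16 TAC mice lay below all sham mice. Hspd1 fell, at -0.49 ± 0.07 (1.41-fold lower, limma adjusted p = 4.93e-06), passing alone in wild-type males (-0.61) and knockout males (-0.60). Hspd1 under the actin covariate was at -0.46 (limma adjusted p = 0.061).

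Hspe1, the lid of the same chaperonin, shares a start region with Hspd1 and is read in the opposite direction. Hspe1 signals in wild-type females were 6706, 6785, 7535 and 6239 after sham surgery and 6731, 7106, 6801 and 6952 after TAC. Wild-type males had Hspe1 signals of 7838, 7131, 6969.9 and 7392 after sham surgery and 6959.8, 5827, 6517 and 5776 after TAC. Wild-type males were apart by a narrow gap, and the females were mixed. Knockout females had Hspe1 signals of 8212, 7627, 7640.0 and 8012 after sham surgery and 5825, 8063, 7770.4 and 8207 after TAC. Hspe1 signals in knockout males were 7896, 9510.2, 8218 and 7424 after sham surgery and 7210.0, 8191, 6321 and 5511 after TAC. Knockout values overlapped in both sexes. The fall of Hspe1 was small, at -0.15 ± 0.06 (limma adjusted p = 0.0381), and not as regular as that of Hspd1: it had a positive sign in wild-type females (0.02), a second probe set gave 0.10, and the call was lost when arrays were centred on their medians (-0.12, limma adjusted p = 0.148).

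Hspa9, or mortalin, is the HSP70 that pulls precursors into the mitochondrial matrix. Hspa9 signals in wild-type females were 11597, 13148, 12925 and 11904 after sham surgery and 11575, 10875, 8964 and 11306 after TAC. Wild-type males had Hspa9 signals of 12884, 13084, 10782 and 12468 after sham surgery and 10264, 9063, 9321 and 9403 after TAC. In each wild-type sex all TAC mice lay below the sham mice of that sex, in females by a narrow gap. Knockout females had Hspa9 signals of 10857, 8372, 11109 and 11417 after sham surgery and 8911, 6433, 6883 and 9961 after TAC. Hspa9 signals in knockout males were 12045, 11820.0, 12826 and 8621 after sham surgery and 7162, 8149.6, 7483 and 6248 after TAC. Knockout males were apart and females overlapped. Hspa9 fell, at -0.40 ± 0.07 (1.32-fold lower, limma adjusted p = 1.86e-05), and the 3 of its 4 other probe sets above the level for testing gave -0.30, -0.59 and -0.40. Hspa9 still passed with the beta-actin covariate, at -0.50 (limma adjusted p = 0.0178).

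Dnajc28 is a J-domain protein assigned to mitochondria, and its function is little known. Dnajc28 signals in wild-type females were 1337, 1638, 1366 and 1457 after sham surgery and 946, 1167, 888 and 1197 after TAC. Wild-type males had Dnajc28 signals of 1674, 1574, 1653 and 1660.2 after sham surgery and 1432, 910.2, 1180.0 and 1059 after TAC. In wild types the groups were apart in both sexes. Knockout females had Dnajc28 signals of 1222, 1022, 1444 and 1446 after sham surgery and 847, 781, 612 and 1199 after TAC. Dnajc28 signals in knockout males were 1523, 1418, 1470.5 and 1088 after sham surgery and 707, 1209, 517 and 527 after TAC. Knockout groups overlapped, through high TAC mice of each sex, and 9 of 16 TAC mice lay below every sham mouse. Dnajc28 fell, at -0.63 ± 0.10 (1.54-fold lower, limma adjusted p = 9.02e-06), and its second probe set gave -0.57. Dnajc15, of the inner membrane import motor, fell by a smaller amount (-0.16 ± 0.05, limma adjusted p = 0.0125). Dnajc11, which associates with the complex that shapes cristae, rose (0.31 ± 0.10, limma adjusted p = 0.0119). Dnaja3 (-0.10) and Dnajc30 (0.12) did not pass.

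**Figure D3:**
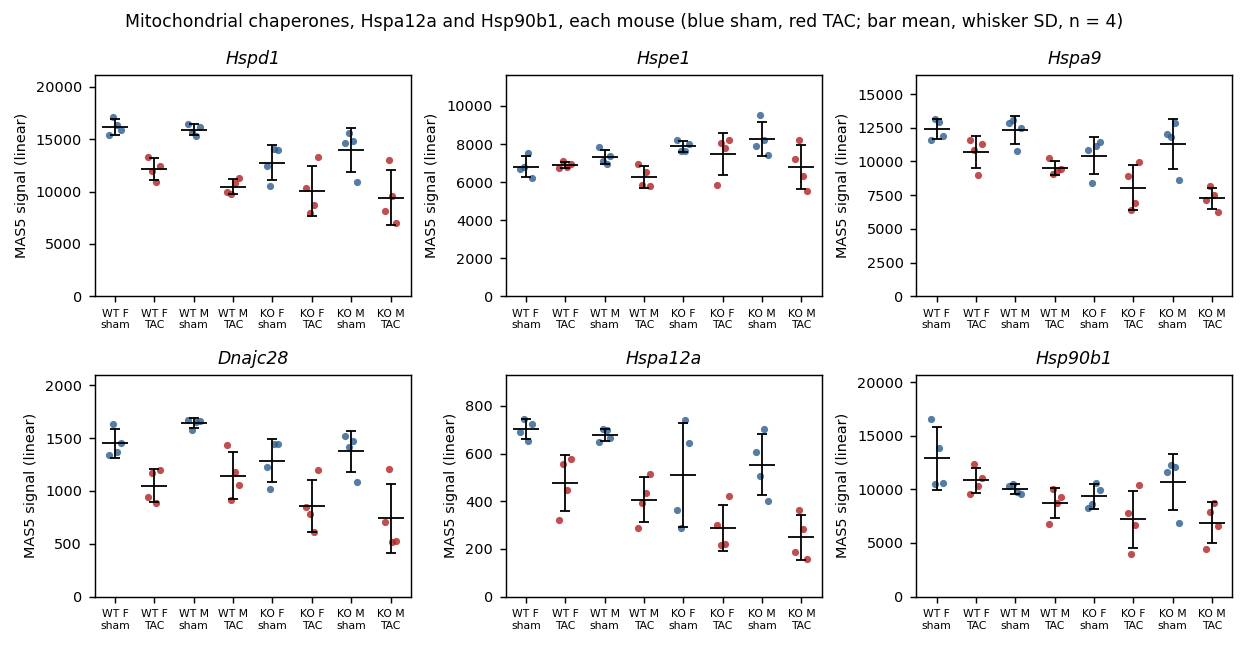
MAS5 signal (linear axis from 0) of each mouse in the 8 groups for Hspd1, Hspe1, Hspa9, Dnajc28, Hspa12a and Hsp90b1; bars are group means and whiskers SD (n = 4). TAC means are below sham means in every stratum except for Hspe1 in wild-type females.

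Of the DNAJA and DNAJB proteins, Dnaja4 had the largest change. It belongs to the class that couples to HSP70 at client binding. Dnaja4 signals in wild-type females were 3647, 3502, 3460.2 and 3389.6 after sham surgery and 5517, 4442, 4481 and 4786 after TAC. Wild-type males had Dnaja4 signals of 3826, 3449, 3606 and 3480.0 after sham surgery and 5345, 5100.0, 4421 and 4791 after TAC. Wild-type TAC mice were all above sham mice. Knockout females had Dnaja4 signals of 4541, 4655, 3176 and 3038 after sham surgery and 5274, 5734, 4846 and 4363 after TAC. Dnaja4 signals in knockout males were 2974, 2626, 3804 and 3969 after sham surgery and 6810.5, 4257, 4785 and 4751 after TAC. Knockout males were apart and knockout females overlapped. Dnaja4 rose by 0.48 ± 0.07 (1.40-fold, limma adjusted p = 5.23e-06), and its other 2 probe sets gave 0.34 and 0.49. Under the actin covariate Dnaja4 was at 0.19 (limma adjusted p = 0.447). Dnaja2 fell (-0.19 ± 0.05, limma adjusted p = 0.00337), while its other probe sets gave -0.10, -0.18 and 0.09, none passing alone.

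Dnaja1 and Dnajb1, the general HSP40 co-chaperones of HSP70, did not pass. Dnaja1 signals in wild-type females were 5599, 2813, 3834 and 3517 after sham surgery and 3149.5, 3276, 2746 and 3796 after TAC. Wild-type males had Dnaja1 signals of 3126, 3056, 2835 and 5146 after sham surgery and 2572, 3049, 4517 and 2994 after TAC. A single high sham mouse in each wild-type sex set the upper end. Knockout females had Dnaja1 signals of 2513, 3479, 4546 and 4078 after sham surgery and 2956, 2712, 3525 and 4563 after TAC. Dnaja1 signals in knockout males were 2941, 3229, 3096 and 3291 after sham surgery and 3458, 2554, 2269 and 2349 after TAC. Dnaja1 groups overlapped in every stratum, at -0.17 ± 0.10 (limma adjusted p = 0.197). Dnajb1 signals in wild-type females were 2115, 944, 1322 and 766 after sham surgery and 1334, 1099, 869 and 1149.5 after TAC. Wild-type males had Dnajb1 signals of 875, 866, 701 and 1682 after sham surgery and 1419, 718, 1672 and 1043 after TAC. The high sham mice for Dnajb1 were those that were high for Dnaja1 and Hspa1a. Knockout females had Dnajb1 signals of 1005, 1707, 1683 and 668 after sham surgery and 846, 1258, 1522 and 1423 after TAC. Dnajb1 signals in knockout males were 833, 836, 758 and 1853 after sham surgery and 1770.1, 953, 953 and 949.7 after TAC. Dnajb1 also overlapped everywhere, at 0.09 ± 0.16 (limma adjusted p = 0.705).

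Dnajb4 is a close relative of Dnajb1 that is abundant in muscle. Dnajb4 signals in wild-type females were 6937, 5442, 6651 and 7689.8 after sham surgery and 7009, 6683, 5828 and 8306 after TAC. Wild-type males had Dnajb4 signals of 5448, 5944, 6046 and 6827 after sham surgery and 7173, 7759, 7093 and 6822 after TAC. Wild-type males came near to separation, with the lowest TAC mouse just under the highest sham mouse. Knockout females had Dnajb4 signals of 6816, 6071, 6841 and 7552 after sham surgery and 7875, 6442, 9427 and 7745 after TAC. Dnajb4 signals in knockout males were 6569.7, 7212, 6829 and 7372 after sham surgery and 7230.4, 7156, 7038 and 7966 after TAC. Knockouts overlapped. Dnajb4 passed narrowly (0.14 ± 0.06, limma adjusted p = 0.0461), and leaving out 1 array ended the call for 20 of the 32 arrays. Dnajb6, which keeps aggregation-prone proteins soluble and in which mutations cause a limb-girdle muscular dystrophy, rose by 0.20 ± 0.07 (limma adjusted p = 0.0251). Its other probe sets gave 0.03, 0.09 and 0.16, none passing when fitted alone. Dnajb5 (-0.28) and Dnajb2 (0.03) did not pass.

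In the endoplasmic reticulum Dnajb9, which serves its HSP70 Hspa5, ran from 3943 to 7637 (median 5044) in sham and from 3205 to 5703 (median 3838) in TAC mice, and it fell, at -0.37 ± 0.08 (1.29-fold lower, limma adjusted p = 0.000504). Dnajb12, of the reticulum membrane, rose by 0.43 ± 0.14 (limma adjusted p = 0.0147), while its other probe set gave 0.14 and did not pass alone. Dnajc1, another membrane J-protein of the reticulum, also rose. Dnajc1 signals in wild-type females were 876, 854, 907 and 766 after sham surgery and 1172, 1142, 1309 and 1153 after TAC. Wild-type males had Dnajc1 signals of 826, 999, 866 and 869.9 after sham surgery and 1162, 1123, 1254 and 1018 after TAC. No wild-type TAC mouse was as low as a sham mouse of its sex. Knockout females had Dnajc1 signals of 1168, 1316, 952 and 794 after sham surgery and 1271, 1728, 1401 and 948 after TAC. Dnajc1 signals in knockout males were 982, 1072, 928 and 1157 after sham surgery and 1470.5, 1406, 1248 and 1559 after TAC. Knockout males were apart and females overlapped. Dnajc1 changed by 0.40 ± 0.07 (1.32-fold, limma adjusted p = 5.31e-05), and the call was lost when all its probe sets were averaged (0.06, limma adjusted p = 0.396). Dnajc3, Dnajc10, Dnajb11, Dnajb14 and Hspa13 did not pass on the probe sets used. Other Dnajc3 probe sets gave -0.22 and -0.41, both passing as lower when fitted alone, and -0.20 and 0.01, which did not pass. Other Hspa13 probe sets above the level for testing gave -0.53, passing as lower when fitted alone, and -0.20, which did not pass.

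Other DNAJC proteins included Dnajc2, a partner of HSP70 at the ribosome, which rose (0.30 ± 0.09, limma adjusted p = 0.00577). Dnajc17 is a nuclear J-protein linked to splicing. Dnajc17 signals in wild-type females were 649, 447, 685 and 484 after sham surgery and 702, 858, 627 and 647 after TAC. Wild-type males had Dnajc17 signals of 515, 710.5, 454 and 493 after sham surgery and 713, 519, 658 and 384 after TAC. Wild-type groups overlapped. Knockout females had Dnajc17 signals of 640.1, 1257, 438 and 524 after sham surgery and 1174, 1371, 1731 and 1292 after TAC. Dnajc17 signals in knockout males were 455, 577, 488 and 684 after sham surgery and 1562, 1577, 626 and 1482 after TAC. Most knockout TAC mice were above 1100, with TAC male replicate 3 and sham female replicate 2 crossing into the other group. Dnajc17 rose by 0.63 ± 0.13 (1.55-fold, limma adjusted p = 0.000277), at 1.03 in knockout females and 1.13 in knockout males, both passing, and at 0.32 and 0.05 in wild-type females and males. The difference between the genotypes' responses was 0.71 ± 0.37 in females and 1.09 ± 0.37 in males, and neither passed (limma adjusted p = 0.28 in males). With the beta-actin covariate the mean change was 0.72 (limma adjusted p = 0.0963). A second Dnajc17 probe set gave a mean change of 0.38 and did not pass when fitted alone.

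Hspb11, Hspbp1 and Hspbap1 matched by name only and are not chaperones of these families. Hspb11 is a subunit of the intraflagellar transport machinery. Hspb11 signals in wild-type females were 592, 689, 569 and 777 after sham surgery and 712, 848, 656 and 753 after TAC. Wild-type males had Hspb11 signals of 655, 712, 711 and 655 after sham surgery and 734, 809, 846 and 826 after TAC. Wild-type males were apart and females overlapped. Knockout females had Hspb11 signals of 526, 566, 624 and 656 after sham surgery and 766, 953, 1078 and 807 after TAC. Hspb11 signals in knockout males were 584, 689, 571 and 561 after sham surgery and 872, 751, 739.8 and 834 after TAC. Both knockout strata were apart. Hspb11 rose by 0.34 ± 0.06 (1.27-fold, limma adjusted p = 3.2e-05). Hspbp1, a nucleotide exchange factor of HSP70, gave 0.19 overall and passed in knockout males (0.59). Hspbap1 gave -0.13.

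By stratum the counts of members differed, and so did those of all genes. They rest on 1 spread per gene shared by the 8 groups. With only the groups compared in the fit, 5 members passed in wild-type females and 10 in wild-type males, beside 6.24% and 11.5% of all genes. In knockout females and males 3 and 9 then passed, beside 3.07% and 10.5%. Passing in 1 stratum and not in another thus depended on that choice. In wild-type females 2 members rose and none fell, beside 3.28% of all genes called (2.05% higher and 1.23% lower). The risers were Hspa1l and Hspa4. In wild-type males 3 rose (Hspa1a, Hspa1b and Hspa1l) and 1 fell (Hspd1), beside 5.56% of all genes (3.11% higher and 2.45% lower). Knockout females had 6 rises, which were Hspa1l, Hspb1, Hspb6, Hspb8, Hspb11 and Dnajc17, and no fall, beside 5.58% of all genes (3.75% higher and 1.83% lower). Knockout males had 16 rises and 8 falls, beside 32.6% of all genes (19.6% higher and 12.9% lower). There 5 of the 6 tested small heat shock proteins rose (Hspb1, Hspb2, Hspb6, Hspb7 and Hspb8), and Hspb3 did not pass. Of the 26 members called over the mean of the strata, 24 had 1 sign in all 4 strata, and Hspe1 and Dnajc15 did not. The calls rest on these same strata, which favours a shared sign, and the share among all called genes is not given here. Single arrays moved these counts and, in most of the fits given here, those of all genes in the same direction. In knockout males 14 members passed without sham replicate 1, 13 without sham replicate 2 and 9 when only those 2 groups entered the fit, beside 20.7%, 18.5% and 10.5% of all genes. In knockout females the count was 12 without TAC replicate 4 and 10 without sham replicate 2, beside 8.38% and 8.16% of all genes. The wild-type male count was 2 when TAC replicate 2 or 3 was left out, beside 1.72% and 2.28% of all genes. The wild-type female count was 1 without sham replicate 2, 3 or 4, beside 1.6%, 2.11% and 1.98% of all genes. It was also 1 without TAC replicate 1, 3 or 4, beside 1.09%, 1.22% and 3.63%. Without the 4 arrays that stood farthest from their groups, which were wild-type TAC male 1, knockout sham female 2 and knockout sham males 2 and 4, the female counts were 4 in wild types and 11 in knockouts, beside 4.68% and 11.9% of all genes. The male counts were 9 and 21, beside 11.2% and 32.2%, and the count over all strata was 28, beside 46.2%.

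**Figure D4:**
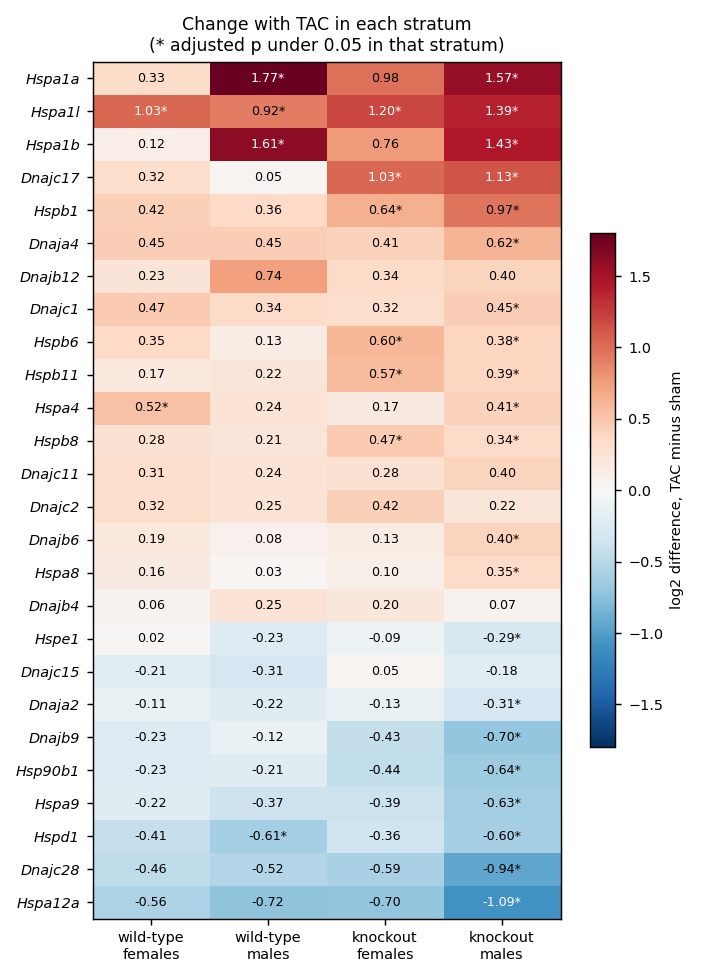
Colour and number give the log2 difference between TAC and sham in each stratum (columns) for the 26 members that passed over the mean of the strata (rows); an asterisk marks an adjusted p under 0.05 in that stratum. Signs are the same along each row except for Hspe1 and Dnajc15, and knockout males carry the most asterisks.

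Different counts do not show different responses, and no difference of response passed. Between the genotypes' male responses 0 of the 62 members passed in limma, 7 had an unadjusted p under 0.05, and 0% of all genes passed, while 1523 genes had an unadjusted p under 0.05. The member with the smallest p there was Hspb2 (0.71 ± 0.21, limma adjusted p = 0.245), followed by Dnajc17 and by Hspb1 (0.61 ± 0.21, limma adjusted p = 0.28). With array weights 12 members passed in that comparison beside 26.3% of all genes, without the 4 distant arrays 1 did beside 0.971%, and without knockout sham male replicate 4 alone 3 did beside 4.08%. These counts are no result about the members. Between the genotypes' female responses no member passed and 3 had an unadjusted p under 0.05, beside 0% of all genes. The sex difference in response gave no member in wild types (2 with an unadjusted p under 0.05) and none in knockouts (0 with an unadjusted p under 0.05), both beside 0% of all genes. The 2 in wild types were Hspa1a (-1.44 ± 0.59) and Hspa1b (-1.49 ± 0.64), female minus male, both with a limma adjusted p of 1. Both genes had 1 high sham mouse in each wild-type sex.

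Averaged over genotype and surgery, no member differed between females and males in limma. Of all genes 0.154% did (0.0908% higher and 0.0636% lower in females), and 2 members had an unadjusted p under 0.05: Hspa2 (-0.19 ± 0.09, female minus male) and Hspb8 (-0.10 ± 0.05), with limma adjusted p of 0.752 and 0.778. The 62 differences lay between -0.19 and 0.20 on the log2 scale.

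Between knockout and wild type, averaged over sex and surgery, 14 of 62 members passed, 5 higher and 9 lower in the knockouts, beside 16.7% of all genes (9.1% higher and 7.6% lower). The split depended on scaling, for members and for all genes. Centring the arrays on their medians gave 13 higher and 4 lower, beside 14.4% and 3.77% of all genes. Quantile normalization gave 7 higher and 10 lower, beside 10.8% and 7.08%. Array medians were 104.6 to 127.7 in wild types and 101.5 to 122.1 in knockouts, and centring moved the median difference of all genes from 0.00 to 0.06. Without knockout sham female replicate 2, or without knockout TAC male replicate 1, 9 members passed, beside 11% and 13.1% of all genes. Among markers of cell types, 2 of 6 fibroblast, 1 of 6 ventricular myocyte and 1 of 5 endothelial genes were lower in knockouts and none of those was higher. None of the 7 macrophage, 4 atrial and 3 smooth muscle markers tested passed. Beside the 16.7% of all genes called, these small counts are no result about cell types. The part of cell types in the member differences was not tested. All of the 9 members called under each of the 3 scalings kept their direction: Dnajc1, Dnajc3, Dnajc17, Dnajc24 and Hspb3 were higher in knockouts, and Hspa4l, Hspa9, Hspa12a and Dnajc28 were lower. Of these, Hspa9 and Dnajc28 also fell with TAC in the mean, as did Hspa12a. Among the other members called on the deposited scale, Dnajc2 was lower on the probe set used (-0.25). Another Dnajc2 probe set passed as higher in knockouts when fitted alone (0.37, limma adjusted p = 0.00887). With probe sets averaged the genotype difference was 0.05 for Dnajc2 and -0.0045 for Dnaja2. Of the members called under each scaling, Dnajc1 gave 0.10 and Dnajc17 gave 0.25 with probe sets averaged. The other Dnajc1 probe sets above the level for testing gave 0.06 and 0.06, neither passing when fitted alone.

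Hspa4l, an HSP110 protein that is abundant in testis and also present in heart, had the largest genotype difference. Hspa4l signals in wild-type females were 1518, 1668, 1615 and 1695 after sham surgery and 1814, 2129, 1343 and 2153 after TAC. Wild-type males had Hspa4l signals of 1959, 1492, 1324 and 1557 after sham surgery and 815, 2193, 1820.4 and 1801 after TAC. Wild-type TAC male replicate 1 was the lowest wild-type mouse by far. Knockout females had Hspa4l signals of 742, 438, 1468 and 1500.4 after sham surgery and 1189, 489.6, 547 and 1959 after TAC. Hspa4l signals in knockout males were 1464, 1509, 2039 and 530.2 after sham surgery and 569, 1169, 1469 and 529 after TAC. Each knockout group held at least 1 mouse below the lowest wild-type mouse, and others at wild-type level: 815 to 2193 (median 1681) in wild types and 438 to 2039 (median 1179) in knockouts. Hspa4l was lower in knockouts, at -0.74 ± 0.20 (1.67-fold lower, limma adjusted p = 0.0153). Its 4 other probe sets gave -0.57, -0.30, -0.25 and -0.44.

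Dnajc3, an inhibitor of the kinases that slow translation under stress and a helper of Hspa5 in the reticulum, was higher in knockouts. Dnajc3 signals in wild-type females were 2186, 1599, 1232 and 2003 after sham surgery and 1433, 1606, 1584 and 1682 after TAC. Wild-type males had Dnajc3 signals of 1719, 1660.3, 1766 and 1732 after sham surgery and 1478, 1815, 1454 and 1742 after TAC. Wild-type signals were highest in sham female replicate 1. Knockout females had Dnajc3 signals of 2353, 2195, 2234 and 2245 after sham surgery and 2118, 1571, 2309.9 and 1939.8 after TAC. Dnajc3 signals in knockout males were 1913, 1982, 2272 and 2366 after sham surgery and 1645, 1822, 2201 and 2235 after TAC. All 4 knockout sham females lay above every wild-type mouse, while the other knockout groups overlapped with wild types. Dnajc3 differed by 0.32 ± 0.07 (1.25-fold, limma adjusted p = 0.00386). Its other probe sets gave 0.35, 0.14, -0.06 and 0.09, so the size depends on the probe set. The signal of Hspa9 was 8964 to 13148 (median 11441) in wild types and 6248 to 12826 (median 8766) in knockouts, a difference of -0.30 ± 0.07 (limma adjusted p = 0.00419). The same 3 other probe sets gave -0.11, -0.03 and -0.15. For Hspa12a the ranges were 286 to 746 (median 614) and 159 to 742 (median 364), with a difference of -0.55 ± 0.12 (limma adjusted p = 0.00484). Dnajc17 was 384 to 858 (median 637) in wild types and 438 to 1731 (median 929) in knockouts, at 0.57 ± 0.13 (limma adjusted p = 0.00479). Its second probe set above the level for testing gave 0.42 and did not pass when fitted alone. Dnajc28 differed by -0.36 ± 0.10 (limma adjusted p = 0.0164), and its second probe set gave -0.33. The sources used here name no array batches, and a batch that went with genotype cannot be told apart from it.

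**Figure D5:**
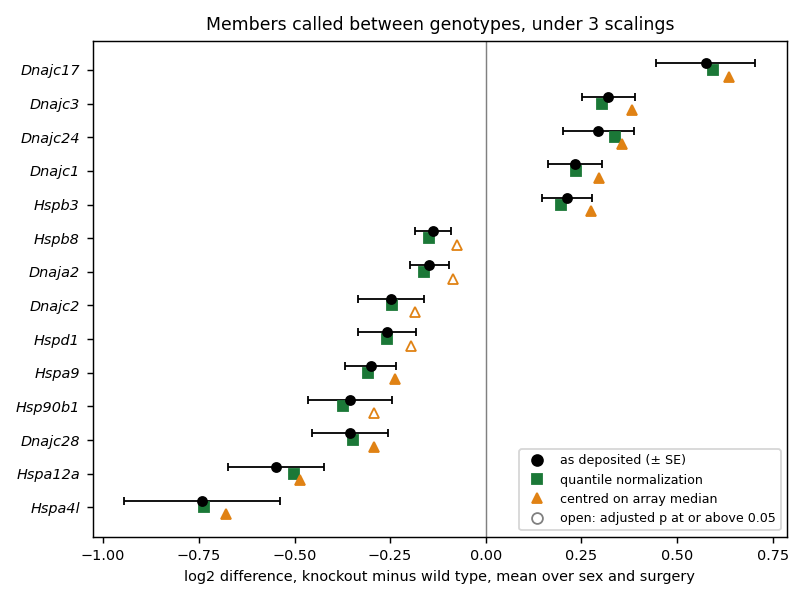
Log2 difference between knockout and wild type for the 14 members that passed on the deposited scale (circles, with SE), after quantile normalization (squares) and after centring on array medians (triangles); open symbols did not pass. Centring shifts every member to the right and leaves Hspb8, Dnaja2, Dnajc2, Hspd1 and Hsp90b1 short of the threshold.

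Some single mice that stood out within their group did so for more than 1 member, such as wild-type sham male replicate 4 for Hspa1b and Dnaja1. The pairs described here were picked after this was seen, so correlations of their deviations from the group mean over 32 mice are a description and carry no test. For Hspa1a they were r = 0.693 (Spearman rho = 0.646) with Dnajb1, r = 0.593 (rho = 0.554) with Dnaja1, r = 0.564 (rho = 0.576) with Hspa8, r = 0.488 (rho = 0.471) with Hspa1l and r = 0.480 (rho = 0.511) with Hspb1. Leaving out the 2 mice farthest on Hspa1a gave r of 0.570, 0.566, 0.493, 0.385 and 0.369 in the same order. Hspa1b gave r = 0.936, but its probe sets may read Hspa1a as well. For Hsph1 and Hsp90aa1, which are also heat-inducible, r was 0.169 and 0.063. The same mouse was the highest of its group for Hspa1a and Dnajb1 in 6 of the 8 groups. With the summed immediate early genes, which respond within minutes to stress and handling, r was 0.316. Of those genes 6 of 9 tested rose with TAC, and their sums ran from 7067 to 25269 in sham and from 8834.0 to 29469.8 in TAC mice.

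Hspa4l and Hsp90aa1 deviations gave r = 0.716 (rho = 0.651), and r = 0.636 without the 2 mice farthest on Hspa4l. Both lay along the main axis on which arrays of a group differed, the first component of all tested genes within groups, which took 30.4% of the within-group variance. Its score gave r = -0.848 with Hspa4l and r = -0.805 with Hsp90aa1, and it was computed over genes that include both. Scores ran from -28.74 to 39.48 in knockouts and from -9.67 to 25.80 in wild types, the latter maximum in TAC male replicate 1, the mouse with the lowest wild-type Hspa4l. The part of this axis in the lower Hspa4l of the knockouts was not tested. Hspa4l passed between the genotypes in each of 32 fits that left out 1 array. Such fits say nothing about the axis, because several knockout arrays lie far out on it at once.

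Partners of these chaperones were counted on lists without members. Of 18 tested HSP70 partners and nucleotide exchange factors 4 rose and 2 fell with TAC, with a median log2 change of 0.04. Bag2, a nucleotide exchange factor, had the smallest p (0.59 ± 0.07, adjusted p = 8.77e-08). Bag3, the partner of Hspb8, rose less (0.17 ± 0.05, adjusted p = 0.00958). Of 20 HSP90 co-chaperones 3 rose and 4 fell. Among them Fkbp5, an immunophilin of steroid receptor complexes, rose (0.45 ± 0.13, adjusted p = 0.00511), and Itgb1bp2, the muscle protein melusin, fell (-0.51 ± 0.16, adjusted p = 0.01). Of 15 genes of the cytosolic chaperonin CCT and prefoldin 1 rose, Pfdn1 (0.51 ± 0.08, adjusted p = 6.83e-06), and 1 fell, Pfdn6 (-0.23 ± 0.08, adjusted p = 0.0268). Of 16 chaperones and stress regulators of the endoplasmic reticulum 5 rose and 3 fell. Hspa5, its main HSP70, fell (-0.41 ± 0.08, adjusted p = 0.00011) as Hsp90b1 and Dnajb9 did, while Serpinh1, the collagen chaperone, rose (0.39 ± 0.08, adjusted p = 0.000163) and so did the transcription factor Atf4 (0.34 ± 0.07, adjusted p = 0.000365). Of 10 mitochondrial proteases and assembly factors 3 rose and 1 fell, which was Clpx (-0.53 ± 0.11, adjusted p = 0.000218). Neither of the 2 tested genes of heat shock transcription passed, and Hsf1 was not analysed here. Beside all these counts stand 23.5% of all genes higher and 17.8% lower.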

How the data were processed

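RNA from the left ventricle of 32 mice was amplified from oligo(dT) primers, labelled with biotin and read on Affymetrix arrays, per the labels' protocols. The authors deposited MAS5 5.0 signal intensity values on a linear scale for 45101 probe sets, per the submitters' processing notes. The 2% trimmed mean of every array was 500, and the values were used as deposited. The number of arrays limits the precision. No genome build, scan date or batch is given in the sources used here.

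Probe sets were named through the platform annotation: 34945 had 1 gene symbol and 932 had several, and the latter named no gene. Each gene took the probe set with the highest mean. Genes whose mean fell short of the middle value over all probe sets but controls (log2 of 7.11, a signal of 106.1) were left out of the tests, which removed 7 members: Dnajb3, Dnajb7, Dnajb8, Dnajb13, Dnajc6, Dnajc22 and Hspb9. limma 3.58.1 in R 4.3.3 fitted 8 group means to log2(signal + 32), with a trend in eBayes and Benjamini-Hochberg adjustment over 11014 genes within each of 11 comparisons at 0.05. The code was tested on simulated data. Relations between mice were computed in Python 3.11.15 as a description.

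Members named with values in every mouse were chosen by rule: those with the 12 smallest p for TAC, up to 6 with the smallest p among those that passed in the genotype or sex comparisons, and a panel of 16 named chaperones, 24 in all. The other members are a closed set and any could be named, with at most 4 genes per partner list by smallest p. Chosen after values were seen were the compartments and the pairs of genes related between mice. The members and lists were chosen with earlier results of these data known. Alternatives were quantile normalization, centring, pseudocounts of 1 and 128, other filters, the mean of probe sets, a replicate block, array weights, RNA controls as covariates, smaller fits and leaving out each array. Replicate numbers were not taken as pairs in the main fit. Same-numbered arrays of different groups had a median correlation of deviations of 0.015 (-0.609 to 0.585). For arrays of other numbers in different groups it was -0.007 (-0.624 to 0.612).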

Additional observations from a re-analysis of the deposited data

Results flagged for a closer look

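In 11 of 192 groups of 4 mice a single mouse stood apart from the others by more than Dixon's 95% critical value, where chance gives about 1 in 20, or 9.6. The pattern of these is given as values only. In wild-type sham mice Hspb6 was 31162.5 in female replicate 3 (others 25718.6 to 26569.2), Hspa1b was 1052.1 in male replicate 4 (others 325.0 to 391.3) and Dnaja1 was 5146.5 in the same male (others 2834.9 to 3126.4). In wild-type TAC mice Hspa8 was 35559.2 in female replicate 1 (others 25201.3 to 26642.9). Among the males of that group replicate 1 had 32726.1 for Hspb6 (others 30988.1 to 31187.8) and 4915.1 for Hsp90aa1 (others 10971.0 to 12730.5). In knockout sham mice Hspa9 was 8371.9 in female replicate 2 (others 10856.8 to 11417.2) and Dnajb1 was 1852.7 in male replicate 4 (others 757.7 to 835.9). In knockout TAC mice Hspe1 was 5824.8 in female replicate 1 (others 7770.4 to 8206.6). Dnajc17 was 625.6 in TAC knockout male replicate 3 (others 1481.8 to 1577.0) and Dnajb1 was 1770.1 in TAC knockout male replicate 1 (others 949.7 to 953.1).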

How the results depend on the processing

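Members that passed for TAC numbered 26 over all strata, and by stratum 2 and 4 in wild-type females and males and 6 and 24 in knockout females and males; strata come in that order. The share of all genes called moved in most of these fits too, and is given in brackets; the cause was not tested. With the beta-actin covariate the counts were 6, 1, 0, 3 and 7 (7.88%, 1.12%, 1.66%, 1.13% and 7.76%), and with the Gapdh covariate 17 in all (18.5%), 1 in each wild-type sex (1.43% and 1.73%) and 15 in knockout males (19.1%). Fits of only the groups compared gave 5, 10, 3 and 9 (6.24%, 11.5%, 3.07% and 10.5%), and array weights gave 6 and 21 in wild types and 15 in knockout females (7.48%, 26.7% and 16.9%). Quantile normalization gave 5 in wild-type females (3.44%). The stricter filter gave 1 in wild-type females and 2 in wild-type males (3.82% and 7.54%), and the mean of probe sets gave 1 in wild-type females and 3 in knockout females (3.09% and 5.22%). Without the 4 distant arrays, an alternative chosen after seeing the data, they were 28, 4, 9, 11 and 21 (46.2%, 4.68%, 11.2%, 11.9% and 32.2%), and 12 in place of 14 between genotypes (14.4%). For the genotype difference in the male response, 0 in the fit as described, array weights gave 12 (26.3%) and leaving out the 4 distant arrays gave 1 (0.971%). Leaving out 1 array at a time gave 23 to 29 over all strata (37.9% to 47.4%). In wild-type females and males it gave 1 to 3 (1.09% to 4.03%) and 2 to 5 (1.72% to 8.84%). In knockout females and males it gave 4 to 12 (2.82% to 8.38%) and 13 to 30 (18.5% to 44.7%). It gave 9 to 20 between genotypes (11% to 22.8%) and 0 to 3 for that male response (0% to 4.08%). For sex it gave 0 (0.136% to 0.191%), and also for the other differences of response (0% to 0.00908%). With the replicate number as a block the counts were 25 over all strata (40.5%) and 11 between genotypes (15.4%). In the strata they were 2, 4, 6 and 23 (3.31%, 5.72%, 5.39% and 31.6%). Of the 32 arrays, 13 were closest to an array of their own number, and the number expected without pairing was not computed. Of 1077 values of named members under alternatives, 990 kept direction and side of the threshold, 78 no longer passed, 8 newly passed and 1 turned, which was Hspb7 with the beta-actin covariate (-0.21). Members called for TAC over all strata had 34 other probe sets above the level for testing. Of these 29 had the same sign, and 15 had the same sign and also passed when every probe set was fitted alone. Dim genes such as Hspb9 have no measured difference here.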
